A study of Mus musculus with 2 samples.

Results

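Mir99a, Mirlet7c-1 and Mir125b-2 on chromosome 16, Mir99b, Mirlet7e and Mir125a on chromosome 17, and Mir100, Mirlet7a-2 and Mir125b-1 on chromosome 9 form 3 paralogous microRNA loci of the mouse. Each locus holds, in this order along the plus strand, a gene of the miR-99/100 kind, a let-7 gene and a miR-125 gene. These 9 genes, taken by name from the annotation and not by their values, were followed among the 2202 microRNA genes counted. The samples were 2 libraries of C2C12 myocytes, cells of a myoblast line taken from the injured thigh muscle of C3H mice and kept under differentiation for 72 h. All cells therefore share that line and that treatment, there is 1 group, and no comparison between conditions could be made. The labels number the libraries as biological replicates 1 and 2 and do not say whether the cultures were grown apart, so the SDs describe how far these libraries lie apart, for technical or other reasons.

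A microRNA hairpin is cut from a longer transcript and yields short mature strands, its 5p and 3p arms, of which one usually enters the silencing complex. Bases 2 to 8 of the mature strand, the seed, pair with target messages, and microRNAs with the same seed share many targets. let-7 and the miR-125 relative lin-4 were found in the worm as timers of development, let-7 rises in many cells as they differentiate, and miR-99 and miR-100 are known to target mTOR and the IGF1 receptor. In muscle, miR-125b is known to target the growth factor IGF2 and to hold back myoblast differentiation. The joint arrangement of the 3 kinds of gene is old in animals, and hairpins of a shared transcript can still reach different mature levels.

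The 5p arms are shown because their letters decide both the seed family and which reads could be given to 1 gene. They come from RefSeq (GRCm38.p6), 5′ to 3′, with the seed in capitals.
miR-99a-5p (Mir99a): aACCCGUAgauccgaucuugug
miR-99b-5p (Mir99b): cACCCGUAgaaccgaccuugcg
miR-100-5p (Mir100): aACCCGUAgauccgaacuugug
let-7c-5p (Mirlet7c-1): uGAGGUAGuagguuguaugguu
let-7e-5p (Mirlet7e): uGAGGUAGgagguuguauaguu
let-7a-5p (Mirlet7a-2): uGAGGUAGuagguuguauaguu
miR-125b-5p (Mir125b-1 and Mir125b-2): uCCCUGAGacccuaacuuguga
miR-125a-5p (Mir125a): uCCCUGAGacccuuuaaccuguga

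The 3 genes of each kind had the same seed, ACCCGUA for miR-99/100, GAGGUAG for let-7 and CCCUGAG for miR-125. Positions are counted from 1 at the 5′ end. miR-99a-5p and miR-100-5p differed by 1 substitution, U16A, and miR-99a-5p and miR-99b-5p by 4, namely A1C, U11A, U16C and U21C. let-7e-5p differed from let-7a-5p by G9U, and let-7c-5p from let-7a-5p by G19A. miR-125a-5p, with 24 bases, shared its first 13 bases with miR-125b-5p, which has 22.

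These letters set a limit on the levels. The counts were read as those of uniquely mapped reads, so a mature strand encoded in more than 1 place contributes to no gene. Among the annotated hairpins, the 5p arms of Mir99a, Mir99b, Mir100, Mirlet7e and Mir125a were each found in 1 hairpin. let-7c-5p lay in 2 hairpins (Mirlet7c-1 and Mirlet7c-2), let-7a-5p in 2 (Mirlet7a-1 and Mirlet7a-2) and miR-125b-5p in 2 (Mir125b-1 and Mir125b-2). The 3p arms of these 4 members were each found in 1 hairpin, and they are shown because they are the mature strands whose exact reads could still be counted.
let-7c-1-3p (Mirlet7c-1): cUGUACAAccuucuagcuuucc
let-7a-2-3p (Mirlet7a-2): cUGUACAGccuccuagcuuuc
miR-125b-1-3p (Mir125b-1): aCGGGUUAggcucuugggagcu
miR-125b-2-3p (Mir125b-2): aCAAGUCAgguucuugggaccu

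Counted in windows of 18 bases, 9 of 77 windows of the Mirlet7c-1 hairpin, 9 of 79 of Mirlet7a-2, 7 of 54 of Mir125b-2 and 7 of 60 of Mir125b-1 occurred in another hairpin. None of the windows of the other 5 hairpins did. The levels of Mirlet7c-1, Mirlet7a-2, Mir125b-1 and Mir125b-2 are therefore uncertain and can be far too low, while the Mir99b locus had 5p arms of its own for all 3 genes. Matches elsewhere in the genome were not searched.

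The 3 loci differ in size. In the mm10 build Mir99a lies on chromosome 16 from 77598936 to 77599000, Mirlet7c-1 from 77599657 to 77599750 and Mir125b-2 from 77646273 to 77646343, a span of 47408 bases, all between exons of the noncoding host gene Mir99ahg. Mir125b-2 also overlaps an exon of C130023A14Rik, a transcript of the same strand. The locus on chromosome 17 spans 692 bases within the protein-coding gene Spaca6, with Mir99b from 17830188 to 17830257, Mirlet7e from 17830352 to 17830444 and Mir125a from 17830812 to 17830879. Mir99b and Mirlet7e are intronic there, and Mir125a overlaps an exon of a Spaca6 transcript. On chromosome 9 Mir100 (41531425 to 41531504), Mirlet7a-2 (41536716 to 41536811) and Mir125b-1 (41581926 to 41582002) span 50578 bases in introns of the noncoding genes 3110039I08Rik and Gm49317, and Mir125b-1 also lies in an exon of the short transcript Gm28119.

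Replicate 1 had 7581366 counts on the sense strand of microRNA genes and replicate 2 had 9865298. Of the labelled cell type's 8 marker microRNAs, chosen with Mir206 among them, 6 were detected, and the list held 35.5% and 42.8% of these counts. Mir206 made up most of this share, with a mean of 378817 CPM. Mir1a-1 and Mir1a-2 averaged 2.94 and 3.02 CPM, and Mir133a-1 and Mir133a-2 were the markers not detected. Reads of a strand shared by numbered copies would be counted for no gene. Of 6 neural markers none was detected and 5 were at 0 counts throughout, where 3 counts, or 0.396 and 0.304 CPM, could have been missed. These neural markers are also numbered copies (of Mir124a and Mir9). Their 0 counts and this limit hold for reads unique to 1 copy and do not show absence. Of 6 epithelial markers 1 was detected and 2 had 0 counts, with a summed level of 8.71 and 5.47 CPM. The 4 blood markers, 2 of them detected, summed to 101 and 183 CPM, and Mir126a and Mir122, endothelial and liver markers of which 1 was detected, to 218 and 43.3 CPM. Detected means at least 10 counts in each library, and CPM is the count scaled to 1000000 assigned counts. Counts were not divided by length, since a read covers about 1 mature strand whatever the hairpin's length. Binomial intervals and limits cover counting error only, because the tables count reads and not molecules.

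All 9 genes were detected and together took 5.19% ± 0.263 of the assigned counts (SD, n = 2), 5.38% in replicate 1 and 5.01% in replicate 2. The Mir99a locus held 2.90% ± 0.128, the Mir99b locus 1.38% ± 0.116 and the Mir100 locus 0.915% ± 0.0186. The order of the loci was the same in both libraries, and their ranges did not overlap. This order holds for assigned counts only. Exact reads of let-7c-5p, let-7a-5p and miR-125b-5p are missing from the Mir99a and Mir100 loci and could change it. Sorted by kind instead, the 3 miR-99/100 genes took 4.79% ± 0.221, the 3 miR-125 genes 0.265% ± 0.00787 and the 3 let-7 genes 0.141% ± 0.0495. The miR-99/100 genes thus carried nearly all of the counts that could be assigned to the loci.

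Mir99a was the leading member, with 223542 counts in replicate 1 and 273260 in replicate 2. These counts are 29486 and 27699 CPM (exact 95% binomial intervals 29365 to 29606 and 27597 to 27802). The gene had rank 6 and rank 5 among all microRNA genes as counted. Ranks given here leave out reads of strands encoded in more than 1 place, so they can be too high for genes with arms of their own. Mir99b followed with 89501 and 103880 counts, or 11805 and 10530 CPM, at ranks 14 and 13. Mir100 had 61674 and 79644 counts, or 8135 and 8073 CPM, at ranks 19 and 17. The libraries gave the same order of these 3 genes, and the ranges of neighbours did not overlap. Mir99a stood 2.50-fold and 2.63-fold above Mir99b, and Mir99b 1.45-fold and 1.30-fold above Mir100.

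Among the let-7 genes of the loci Mirlet7e was the most abundant, with 12726 counts in replicate 1 and 9562 in replicate 2 (1679 and 969 CPM). Its 5p arm was found in no other annotated hairpin, so that its count is not subject to the limit on annotated copies. Mirlet7c-1 had 557 and 798 counts (73.5 and 80.9 CPM), and Mirlet7a-2 had 84 and 130 (11.1 and 13.2 CPM). The latter genes share their main mature strand with other hairpins, so their distance from Mirlet7e is no measure of how much let-7c or let-7a the cells held.

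Of the miR-125 genes, Mir125a was counted 8620 times in replicate 1 and 14573 times in replicate 2 (1137 and 1477 CPM). Mir125b-1 had 8637 and 9239 counts (1139 and 937 CPM), and Mir125b-2 had 2385 and 2845 (315 and 288 CPM). Mir125b-1 exceeded Mir125b-2 by 3.62-fold and 3.25-fold in the reads that could be told apart. Both figures leave out exact reads of the shared miR-125b-5p.

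By mean level the order was Mir99a, Mir99b, Mir100, Mirlet7e, Mir125a, Mir125b-1, Mir125b-2, Mirlet7c-1 and Mirlet7a-2. The ranges of Mirlet7e (1324 ± 502 CPM), Mir125a (1307 ± 241) and Mir125b-1 (1038 ± 143) overlapped between neighbours in this order. Mirlet7e and Mir125a changed places, with a ratio of 1.48 in replicate 1 and 0.656 in replicate 2. Every other pair of neighbours had ranges that did not overlap. Among the genes outside the loci, those nearest in level over both libraries were Mir23a for Mir99a (29161 and 24031 CPM), Mir23b for Mir99b (13280 and 9884 CPM) and Mir149 for Mir100 (7740 and 7995 CPM). Mir615 was nearest to Mir125a (1141 and 1564 CPM), Mir25 to Mir125b-2 (286 and 260 CPM), and Mir503 (1330 and 969 CPM) to both Mirlet7e and Mir125b-1. With 2 libraries of 1 group this is a likeness of level, not of pattern.

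**Figure D1:**
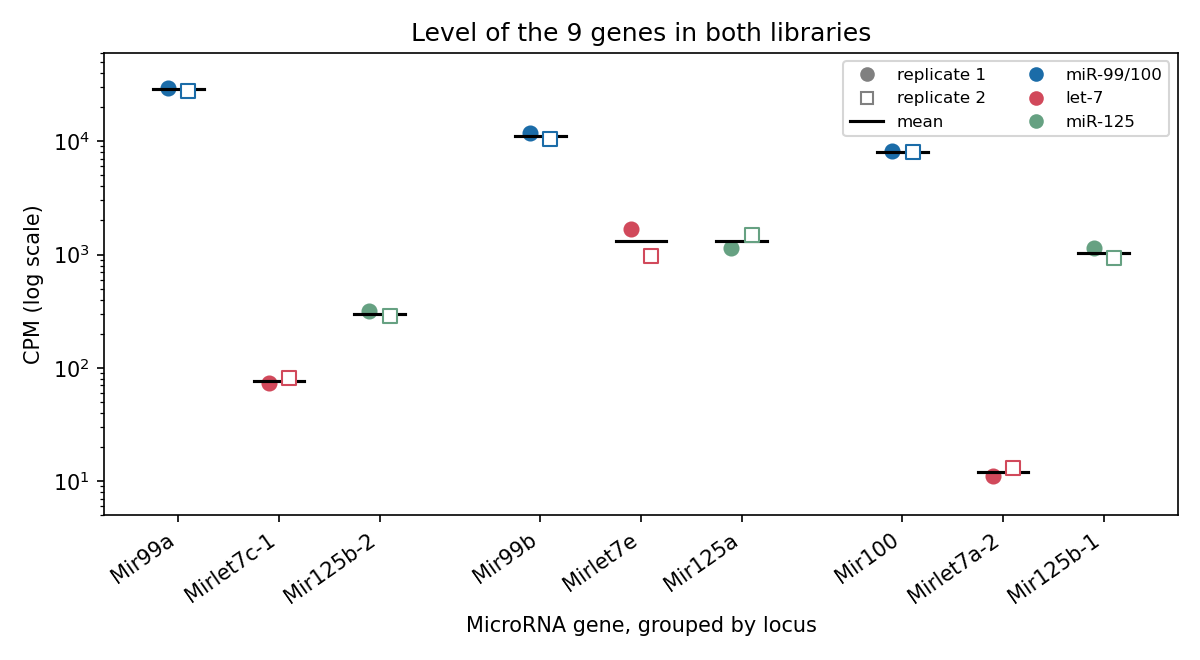
CPM of each of the 9 genes on a log axis, with filled circles for replicate 1, open squares for replicate 2 and a black line at their mean, grouped by locus. Mir99a, Mir99b and Mir100 stand above all other members in both libraries, and on chromosomes 16 and 9 the let-7 gene is the lowest of its locus.

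Within a locus, library scaling cancels, so the make-up can be read directly from the counts. At the Mir99b locus, where each 5p arm is unique, Mir99b took 80.7% of the counts in replicate 1 (exact 95% binomial interval 80.5 to 81.0) and 81.1% in replicate 2 (80.9 to 81.4). Mirlet7e took 11.5% and 7.47%, and Mir125a took 7.78% and 11.4%. The share of Mir99b thus moved little between the libraries while the other two genes changed places. There were 1.48 counts of Mirlet7e per count of Mir125a in replicate 1 and 0.656 in replicate 2. Mir99b had 7.03 and 10.9 counts per count of Mirlet7e, and 10.4 and 7.13 per count of Mir125a.

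At the other loci the leading shares were higher, but reads of the shared let-7 and miR-125b strands are missing from their totals. Mir99a took 98.7% of its locus in each library, Mir125b-2 1.05% and 1.03%, and Mirlet7c-1 0.246% and 0.288%. Mir100 took 87.6% and 89.5%, Mir125b-1 12.3% and 10.4%, and Mirlet7a-2 0.119% and 0.146%. The ratio of Mir99a to Mir125b-2 was 93.7 and 96.0, and that of Mir100 to Mir125b-1 was 7.14 and 8.62. In 6 of 6 locus and library combinations the miR-99/100 gene held the largest share.

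**Figure D2:**
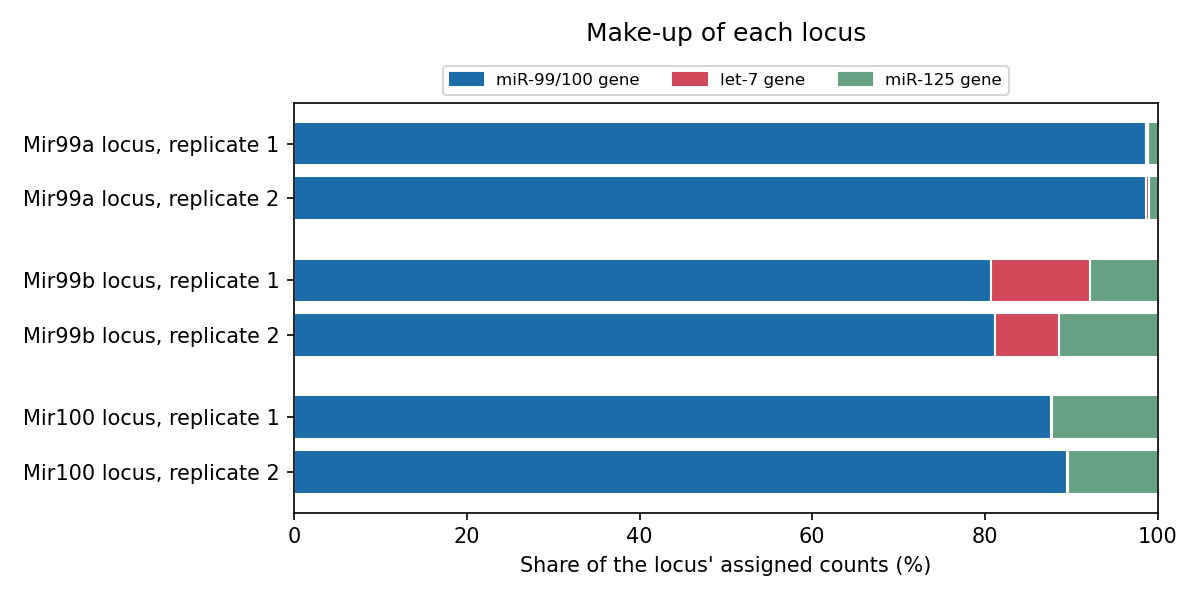
Share of each locus' assigned counts (percent, stacked to 100) taken by its miR-99/100, let-7 and miR-125 gene, with 1 bar per library. At the Mir99b locus the blue part stays at 80.7% and 81.1% while the let-7 and miR-125 parts exchange sizes. At the other loci the let-7 part is too thin to see, and exact reads of shared let-7 and miR-125b strands are missing.

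For comparison, 9 other clusters had at least 3 detected genes on 1 strand with gaps of at most 10 kb. The Mir99b locus meets this limit, but the Mir99a and Mir100 loci do not, since 46522 and 45114 bases separate their let-7 and miR-125 genes. The leading gene of such a cluster took a median of 62.5% of its counts, with a range from 46.7% to 98.0% (mean of the libraries). No other cluster exceeded the Mir99a locus (98.7%), 1 exceeded the Mir100 locus (88.5%) and 2 the Mir99b locus (80.9%). The cluster next below the Mir99a locus and above the Mir100 locus was that of Mirlet7d, Mirlet7f-1 and Mirlet7a-1 (98.0%), in which the let-7f and let-7a strands are also encoded elsewhere. Between Mir100 and Mir99b stood the cluster of Mir23a, Mir27a and Mir24-2 (82.4%), and below Mir99b that of Mir17 (75.9%). This is a description of 12 groups of genes, with no test, and copies shared with other hairpins touch several of them.

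The difference between the libraries was set against that of all detected genes. An exact two-sided binomial test set each gene's counts against the library totals, and its p-values were adjusted by Benjamini and Hochberg's method over 314 genes. Of all genes, 66.6% had an adjusted p below 0.05, and so did 6 of the 9 members. Toward replicate 1 the shares were 38.2% of all genes and 5 of 9 members, and toward replicate 2 they were 28.3% and 1 of 9. This split of members depended on the scaling: 3 were called toward each replicate with TMM or DESeq2 factors, and 2 toward replicate 1 and 4 toward replicate 2 with Mir206 left out of the totals. The test compares these libraries and not conditions. A share of members close to that of all genes is no result about the members. In size the differences were small: all 9 members lay within 2-fold, as did 78.0% of all detected genes, and the median absolute log2 ratio was 0.16 for the members and 0.51 for all detected genes (0.46 for the 65 at a mean of at least 1000 CPM).

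The miR-99/100 genes differed little between the libraries. Their log2 ratios of replicate 1 over replicate 2 were 0.01 for Mir100 (adjusted p = 0.208, exact binomial test), 0.09 for Mir99a and 0.16 for Mir99b. For Mir99a this is a difference of 1.06-fold, called because its counts are large (adjusted p = 1.27e-105, exact binomial test, counting error only). The direction of all 3 changed with the scaling: with Mir206 left out of the library totals the values were −0.17, −0.086 and −0.012. Their levels are thus within 1.12-fold of each other in the libraries under each scaling tried.

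Mirlet7e, Mir125a and Mir125b-1 were called in 1 direction under every scaling and count column in which they could be tested. Mirlet7e was 1.73-fold higher in replicate 1 (1.53-fold to 1.73-fold over the alternatives), with a p of the exact test too small for the program to store. Mir125a was 1.30-fold higher in replicate 2 (1.30-fold to 1.47-fold; adjusted p = 1.05e-83, exact binomial test). Mir125b-1 was 1.22-fold higher in replicate 1 (1.08-fold to 1.22-fold; 1.69e-38, exact binomial test), in reads that exclude the shared 5p strand. Mir125b-2 differed by 1.09-fold (0.00304, exact binomial test), and this call was lost or turned under every other scaling. Mirlet7c-1 (0.120) and Mirlet7a-2 (0.308) did not pass the exact binomial test, with 1.10-fold and 1.19-fold more CPM in replicate 2. Under each of the 4 other scalings and count columns Mirlet7c-1 did pass, higher in replicate 2 by up to 1.24-fold.

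**Figure D3:**
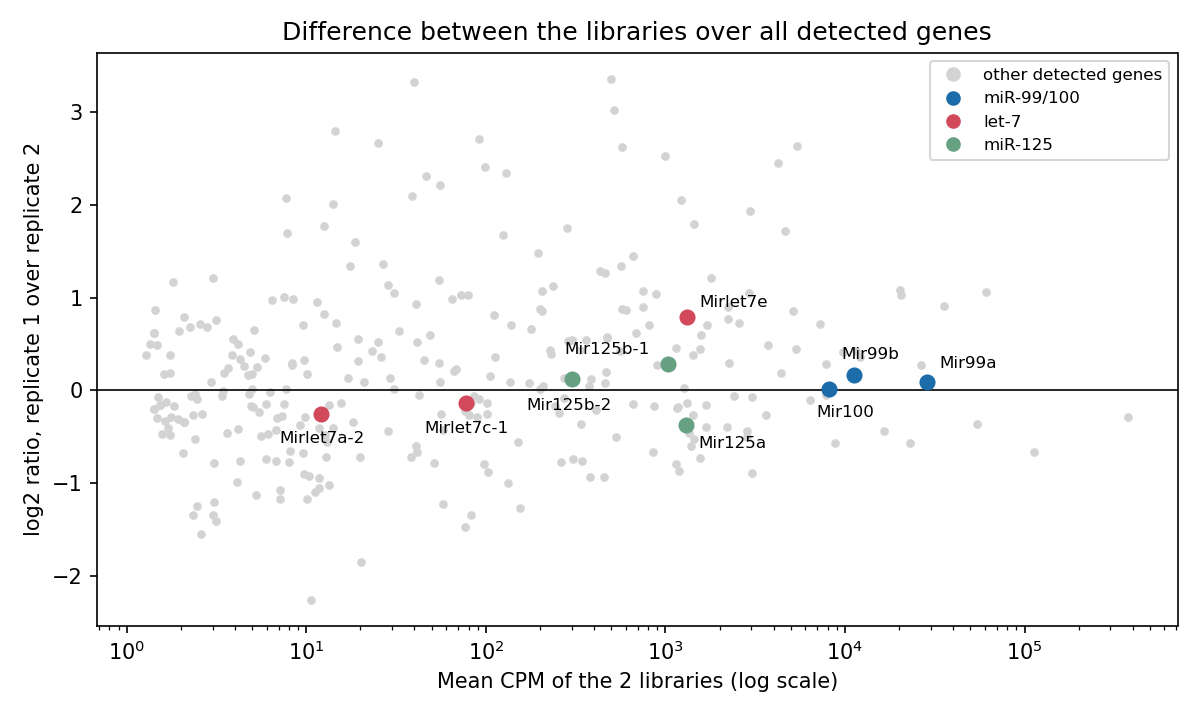
The log2 ratio of replicate 1 over replicate 2 against the mean CPM (log scale) of all 314 detected genes, 1 point each, with the 9 members coloured by kind. The members lie between −0.38 (Mir125a) and 0.79 (Mirlet7e), inside the range of −2.26 to 3.36 of all genes, and the miR-99/100 genes lie close to the zero line.

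The loci can also be read by seed family, since genes with the same seed act on many of the same targets. The miR-99/100 seed occurred, among arms listed for annotated genes, in the 3 members and in no other gene, and the family took 4.94% and 4.63% of the assigned counts. Mir99a supplied 59.7% ± 0.118 of it (SD, n = 2), Mir99b 23.3% ± 0.808 and Mir100 16.9% ± 0.691. All 3 arms were each found in 1 annotated hairpin, so these shares of counts do not rest on how annotated copies were counted. Matches elsewhere in the genome were not searched. The same order and near-equal shares were seen in both libraries.

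The let-7 seed was found in 14 genes, 12 of them detected, which took 5.69% and 4.52% of the assigned counts. The 3 members supplied 2.72% ± 0.527 of the family, and 2.55% ± 0.569 came from Mirlet7e alone. Outside the loci, Mirlet7b (18538 and 27399 CPM) and Mirlet7i (27586 and 13491) held most of it, followed by Mirlet7g (4669 and 1221), Mirlet7d (2825 and 1656) and Mir98 (989 and 160). Mirlet7e thus ranked the fifth of the let-7 seed genes by mean level as counted. Exact reads of let-7a-5p, let-7c-5p and let-7f-5p belong to no gene, so this rank and the family shares hold for assigned counts only. Of the other genes outside the loci, 4 share their 5p arm with a copy and had low unique counts, with 436 and 129 CPM for Mirlet7f-2, 60.4 and 49.3 for Mirlet7c-2, 38.3 and 14.9 for Mirlet7f-1, and 16.0 and 20.2 for Mirlet7a-1. The remaining 2 genes were not detected. Mirlet7c-1 stood within the range of these 4 genes, and Mirlet7a-2 below it.

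The miR-125 seed was found in 6 genes, 4 of them detected, and the family took 0.965% and 1.32% of the assigned counts. Mir351, a gene of the Mir322 cluster on the X chromosome, supplied 76.3% ± 4.49 of it with 7055 and 10473 CPM. Mir125a supplied 11.5% ± 0.407, Mir125b-1 9.46% ± 3.33 and Mir125b-2 2.73% ± 0.758. The 3 members therefore held 23.7% ± 4.49 of the family as counted, and this share is a low estimate, since exact miR-125b-5p reads belong to no gene. With genes of unique arms alone, Mir125a held 13.1% and Mir351 the rest. Mir351 and Mir125a were both higher in replicate 2, by 1.48-fold and 1.30-fold.

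**Figure D4:**
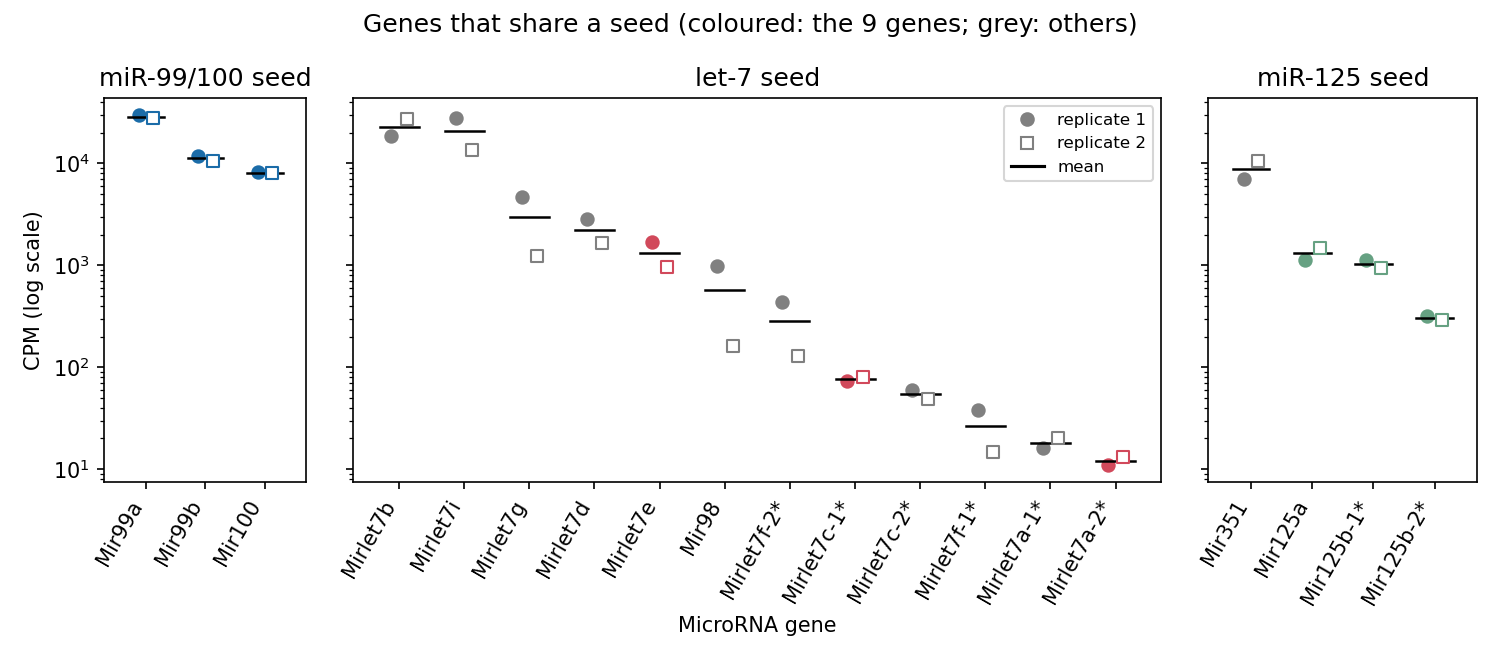
CPM (log scale) of every gene with a mean of at least 10 CPM that carries the miR-99/100, let-7 or miR-125 seed, with filled circles for replicate 1, open squares for replicate 2 and lines at the mean; members are coloured and an asterisk marks a gene whose arm lies in 2 hairpins. The members are the whole of the miR-99/100 family. In the counts that could be assigned, Mirlet7b and Mirlet7i lead the let-7 seed and Mir351 the miR-125 seed. Exact reads of arms that lie in 2 hairpins are missing.

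Base composition was set beside the library difference, first among let-7 genes with a 5p arm of their own. Among the 6 detected let-7 seed genes with an arm of their own, the order of log2 ratios, replicate 1 over replicate 2, followed the GC content of the 5p arm. Mir98, with 31.8% GC, had a log2 ratio of 2.63, and Mirlet7g, with 36.4%, one of 1.93. Mirlet7i, Mirlet7e and Mirlet7d, each with 40.9%, had 1.03, 0.79 and 0.77, and Mirlet7b, with 45.5%, had −0.56. Spearman's rho over these 6 genes was −0.94, a relation picked out after the values had been seen. The points share the same libraries, and genes are not independent replicates. Detected let-7 seed genes with a shared 5p arm are not among them, since exact reads of that arm are missing from their counts. Mirlet7f-2 and Mirlet7f-1 (31.8% GC) had 1.75 and 1.36, and Mirlet7a-1 and Mirlet7a-2 (36.4%) had −0.34 and −0.25. Mirlet7c-1 and Mirlet7c-2 (40.9%) had −0.14 and 0.29, so these genes did not follow the same order. Over all 314 detected genes the rho of the log2 ratio with the GC content of the hairpin was −0.28. With the GC content of the listed mature arms it was −0.23, over 278 detected genes. Mir99b, with 63.6% GC in its 5p arm, and Mir99a and Mir100, with 50% each, had ratios of 0.16, 0.09 and 0.01. Mir125a, Mir125b-1 and Mir125b-2, also with 50% each, had −0.38, 0.28 and 0.13. The part of base composition in the difference of Mirlet7e between the libraries was not tested.

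**Figure D5:**
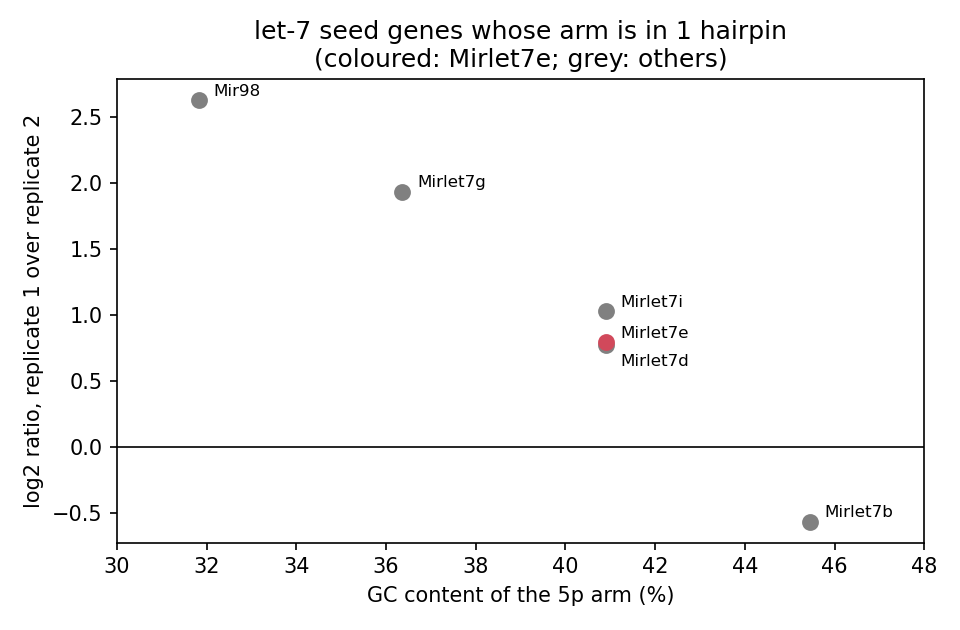
The log2 ratio of replicate 1 over replicate 2 against the GC content (percent) of the 5p arm for the 6 detected let-7 seed genes whose arm lies in 1 hairpin, with Mirlet7e coloured. The points run from 2.63 for Mir98 at 31.8% GC to −0.56 for Mirlet7b at 45.5%, with Mirlet7e at 0.79 between them.

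Almost no reads came from the strand opposite the members. For Mir125b-1 there was 1 opposite-strand count, in replicate 1, and the other 8 genes had 0 in both libraries. Mirlet7e is overlapped on the minus strand by the predicted microRNA gene Gm25927 (17830343 to 17830459), which had 0 counts on its own strand in both libraries. In the column of counts on either strand Mirlet7e had 0 counts in both libraries, against 12726 and 9562 on its sense strand, and it was the only member whose count was lost there.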

How the data were processed

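Small RNA of 2 libraries was sequenced. The deposited tables hold raw read counts per microRNA gene (either strand, sense, opposite strand), made on mm10 with GENCODE M21, per the deposited notes. The labels' protocols name adapter trimming. For the aligner and counter no name is given in the sources used here. The counts were read as uniquely mapped reads, from the tables' separate multi-mapped entry. The 4 summary entries were left out of library totals. Multi-mapped reads made up 22.0% of all reads in replicate 1 and 17.9% in replicate 2.

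Sense counts were scaled to CPM. All 2202 identifiers matched M21, whose hairpins were searched for shared arms and windows of 18 bases. Mature arms came from RefSeq, matched by symbol (9 of 9 genes). Each gene with at least 10 counts per library was compared between the libraries by an exact binomial test (scipy 1.17.1, threshold 0.05), checked on simulated data. The simulated data held counting error only, so the check does not cover other variation between libraries. No edgeR test was possible within 1 group. TMM factors (edgeR 4.0.16) and DESeq2 1.42.0 size factors were alternatives. The genes named are the members, genes of their seeds averaging 10 CPM or more, the gene nearest in level to each member of at least 100 CPM, and clusters next to a locus in the order of leading shares. The members and lists were chosen with earlier results of these data known.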

Additional observations from a re-analysis of the deposited data

Results flagged for a closer look

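Reads outside every gene count are listed here because no comparison above uses them. In replicate 1, 3378438 reads mapped to several places, and 3295854 did so in replicate 2, which is 8.29 and 6.67 times the summed counts of the 9 genes (407726 and 493931). Exact reads of let-7a-5p, let-7c-5p and miR-125b-5p, if mapped, would be among them, and the tables do not divide these reads by microRNA. Uniquely mapped reads on the sense strand of no microRNA gene came to 903243 and 1027420. Unmapped reads, the largest class outside the gene counts, came to 3486158 in replicate 1 and 4261787 in replicate 2.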

How the results depend on the processing

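No paired analysis was possible because the series holds 1 group. The alternatives were chosen with earlier results known. The share of the 9 genes was 5.78% with counts on either strand, 8.37% with Mir206 out of the denominator and 2.67% of all reads; the values for the Mir99a locus were 3.31%, 4.67% and 1.49%, and for the Mir100 locus 1.05%, 1.48% and 0.471%. For the Mir99b locus they were 2.22% without Mir206 and 0.708% of all reads. Counts on either strand change both the genes' counts and the total, and gave 1.42% for the Mir99b locus. With counts on either strand, where Mirlet7e has none, Mir99b took 89.5% of its locus and the loci held 0.183% of the let-7 seed family. With unique arms alone they held 13.1% of the miR-125 seed family. Members called higher in replicate 1 and in replicate 2, 5 and 1 with totals, were 3 and 3 with TMM factors (34.7% and 31.5% of all genes tested), 3 and 3 with DESeq2 size factors (35.03% and 31.5%), 2 and 4 without Mir206 (33.1% and 35.4%), and 2 and 3 of 8 tested in either-strand counts (34.9% and 30.8%). Leaving Mir206 out moved every log2 ratio by −0.18. Ratios that turned were those of Mir99a (−0.0078 with TMM, −0.086 without Mir206), Mir125b-2 (−0.051) and Mir99b (−0.012) without Mir206, and Mir100 (−0.087 with TMM, −0.079 with DESeq2 factors, −0.17 without Mir206, −0.076 in either-strand counts). Minimums of 1 and 100 counts left both member counts at 5 and 1, while the shares of all genes became 22.9% and 18.02% at 1 and 55.6% and 33.2% at 100, where Mirlet7a-2 had too few counts to be tested. Pseudocounts of 10 CPM turned no sign. Values without 1 replicate are those of the other library.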
